A study of Mus musculus with 6 samples.

Results

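The genes described here build, load and anchor the primary cilium: the intraflagellar transport (Ift) genes with Ttc21a and Ttc21b, the Bardet-Biedl (Bbs) genes, the tectonics (Tctn), the kinesin-2 motor genes (Kif3) and the centrosomal protein genes named Cep. They were chosen by name among protein-coding genes on main chromosomes, with Cep290 left out, which gave 64 of the 52143 genes in the deposited table. The study purified mouse rod photoreceptors on postnatal day 10 and asked how rod genes respond to loss of Jun, a subunit of AP-1 bZIP dimers, early in the life of these cells. RNA sequencing was made on 6 libraries, 3 per group.

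Both groups were electroporated in vivo at birth (postnatal day 0) with 0.4 µl of plasmid solution. Controls received a scrambled shRNA in pLKO.1 at 2.5 µg/µl, and the other group an shRNA vector against mouse Jun at the same concentration. Both groups also received a vector at 1.5 µg/µl with EGFP under the Nrl promoter, which is active in rods, and flow sorting kept the EGFP-positive cells, so unlabelled rods were not sampled. Neither strain and sex nor the number of animals per library is stated in the labels. The p-values therefore reflect variation among libraries only, whose biological and technical parts cannot be told apart.

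The outer segment of a rod is a modified primary cilium joined to the cell body by a narrow connecting cilium, and it is enlarged and renewed throughout life. IFT-B and IFT-A complexes form trains that carry cargo along the axoneme, outward with kinesin-2 and inward with cytoplasmic dynein 2. The BBSome rides on these trains and removes membrane proteins that do not belong in the cilium, and its loss leads to retinal degeneration. Most Cep proteins sit at the centriole, the basal body or the pericentriolar material, and in a cell that no longer divides the older centriole serves as the basal body.

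RFX transcription factors bind a motif called the X-box in promoters of many ciliary genes, so the promoters were searched for it. Windows from 250 bases before to 50 bases after the start site were available for 55 of the 64 genes, as 62 RefSeq promoters of the GRCm38.p6 build. An X-box-like motif, the half-sites GTNNCC and GNAAC with 3 bases between them, searched on both strands, was in 10 of the 62 promoters, 16.1%, against 714 of all 32851 promoters, 2.17%. Windows from 6 of these genes, of the BBSome, IFT-B and the Cep group, are printed with the motif in capitals. The letters fixed in the motif are shared because the search required them.
Bbs4: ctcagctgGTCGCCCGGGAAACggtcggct
Bbs7: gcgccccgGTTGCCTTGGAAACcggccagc
Bbs1: tcccaggcGTCGCCTTGGCAACcagctcag
Ift22: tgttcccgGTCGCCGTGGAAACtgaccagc
Ift57: ggcagccgGTCACCACGGCAACcagacccg
Cep19: agccttctGTTGCCTTGGGAACgatcctcg
The capitals lie at chr9:59353472-59353485 in Bbs4, chr3:36613497-36613510 in Bbs7, chr19:4906613-4906626 in Bbs1, chr5:136908117-136908130 in Ift22, chr16:49699207-49699220 in Ift57 and chr16:32099811-32099824 in Cep19. The windows of Bbs1 and Ift57 are written on the strand opposite to the promoter, and the other 4 on the promoter's strand. The other genes with a match were Cep44, Cep83, Cep112 and Tctn1. The shorter GTTGCC, which overlaps some of these matches, was in 22 of 62 promoters (35.5%, against 12.5% of all). The AP-1 motif TGANTCA, which Jun-containing dimers can bind, was in 1 of 62 (1.61%, against 7.81% of all), that of Bbs5, in the window cagagaggTGACTCAgaagtgaa. A match is only a run of letters, and binding was not measured here. The motifs were chosen with the members known.

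The controls held 32150086 to 105800769 counts per library and the libraries labelled Jun shRNA 13211279 to 13998395, so depth and group cannot be told apart. Jun itself stood at 6.47, 5.85 and 7.16 CPM in the controls and 1.84, 17.6 and 19.3 CPM in the libraries labelled Jun shRNA (log2 fold change 0.99, SE 1.44, adjusted p = 0.764, edgeR). It was lower in 1 labelled library and higher in the other 2 than in every control, so the groups are called by their labels throughout. Rod markers were detected in all libraries, and their summed level was 106252 to 121248 CPM in the controls against 9814 to 13055 CPM, with all 11 genes lower on average. Microglial markers summed to 653 to 960 CPM against 1.75 to 5.04 CPM and Müller glia markers to 1686 to 1981 CPM against 260 to 297 CPM, with 8 of 8 and 4 of 7 genes lower on average. Bipolar cell markers summed to 352 to 520 CPM against 466 to 824 CPM, with 2 of 6 lower on average. Among them Prkca passed as higher (edgeR adjusted p = 0.0468) and Sebox as lower (edgeR adjusted p = 0.0124). Dividing-cell markers summed to 54.8 to 68.2 CPM against 11 to 37.5 CPM, with 8 of 10 lower on average, Plk1 at 0 in the labelled group and Bub1 at 0 in the controls. The part of these differences in the results below was not tested. In sorted bulk samples, fewer cells of a type and less RNA per cell cannot be told apart.

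No gene of the set passed the test between groups. Of 56 genes with enough counts to be tested, 0 were higher and 0 lower at an adjusted p under 0.05 (edgeR quasi-likelihood test, Benjamini-Hochberg over 12815 genes), where 0.32% of all tested genes passed as higher and 1.35% as lower, 1.67% in all. At an unadjusted p under 0.05 there was 1 of 56, Bbs12, against 16.8% of all tested genes. The median log2 fold change, labelled Jun shRNA minus control, was -0.11 over the 56 genes (25 positive, 31 negative) and -0.12 over all tested genes. Limma-voom passed 0 of the 56 (3.45% of all genes) and 6 at an unadjusted p under 0.05 (21.1% of all genes).

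Without the filter on low counts, edgeR passed 2 genes of the 64 as lower, Bbs4 (adjusted p = 0.00319) and Kif3c (adjusted p = 0.0118), where 2.23% of all genes passed in either direction. DESeq2 passed Ttc21a as higher (adjusted p = 0.0487) and Cep152 as lower (adjusted p = 0.00990), where 12.9% of all genes with an adjusted p passed. Of the 47 Ttc21a counts, 45 were in labelled replicate 3, so that call rests on 1 library. Kif3c, the alternative kinesin-2 motor subunit, had 3950 counts in control replicate 3, 7 in labelled replicate 3 and 0 elsewhere, so its call rests on control replicate 3. Cep152, a scaffold for the centriole duplication kinase PLK4, stood at 0.0823, 35.9 and 18.5 CPM in the controls and 0.0681, 0 and 0.393 CPM in the libraries labelled Jun shRNA. Kif3c and Cep152 are named after their values were seen.

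**Figure D1:**
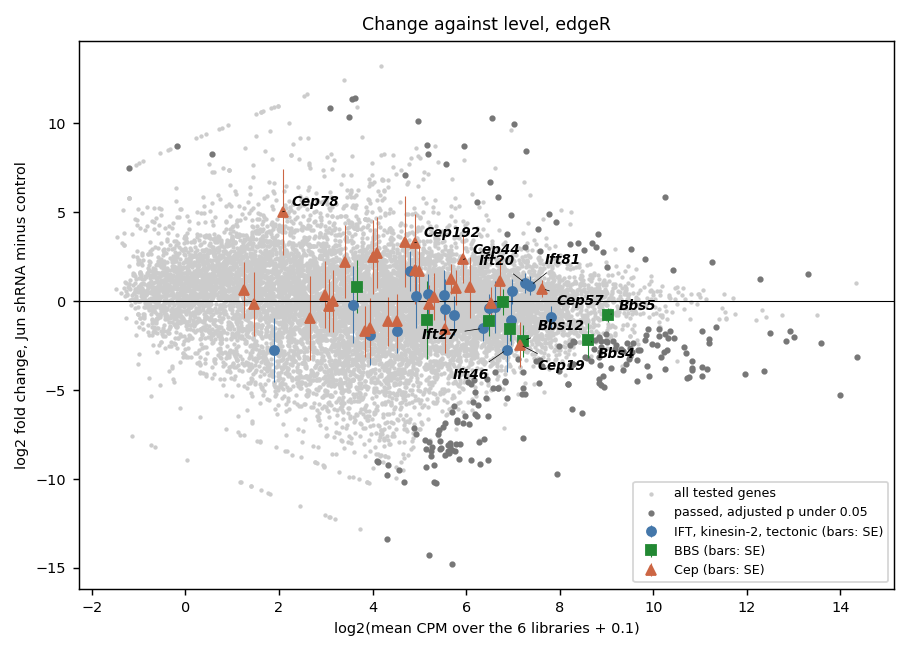
Change against level for all tested genes. The horizontal axis is the log2 of the mean CPM over 6 libraries plus 0.1, the vertical axis the edgeR log2 fold change (labelled Jun shRNA minus control). Pale points are all tested genes, darker points those with an adjusted p under 0.05, and coloured symbols the 56 tested ciliary and centrosomal genes with their SE. None of the coloured symbols is a gene that passed, and they lie on both sides of 0.

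Groups that do not overlap were about as frequent among these genes as elsewhere. All labelled libraries were above all controls for 7 of the 56 (12.5%, against 12.6% of all tested genes) and below all controls for 8 (14.3%, against 15.7%). In either direction it was 15 of 56 (26.8%, against 28.3%). The 7 higher genes were Ift20, Ift81, Ift172, Cep57, Cep44, Cep164 and Cep192, and the 8 lower genes Bbs4, Bbs5, Bbs12, Ift27, Ift46, Ift122, Cep19 and Cep120. These splits depend in part on scaling: the median gene shifts by 0.15 with median-of-ratios, 0.39 with upper-quartile and 0.50 with library-total scaling on the log2 scale. Under each of those 3 scalings Ift74 joined the higher genes and Bbs5 and Ift122 overlapped, and under the latter 2 Bbs12 overlapped as well.

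**Figure D2:**
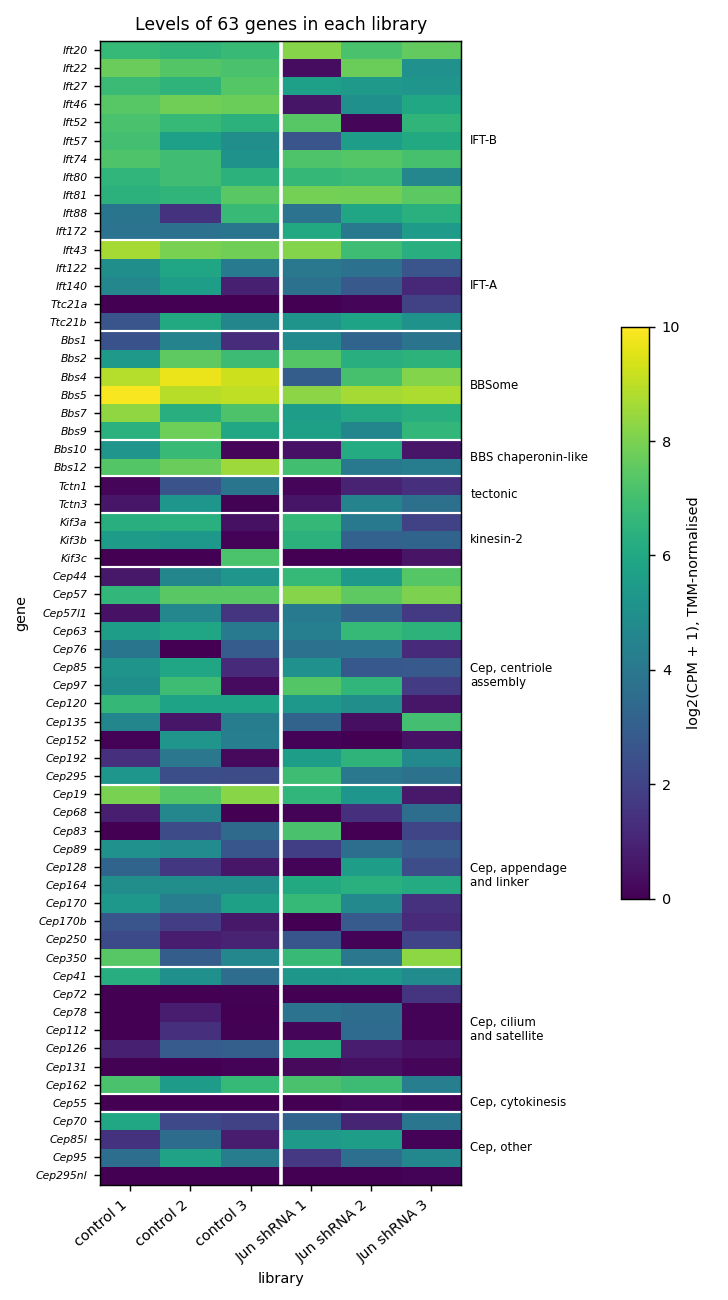
Level of 63 of the 64 genes (rows, grouped by role) in each of the 6 libraries (columns) as log2 of TMM-normalised CPM plus 1. Bbs4 and Bbs5 are the brightest rows in the controls, and many rows switch between bright and dark among libraries of 1 group.

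Per unit of transcript length, the set spanned from abundant to undetected in control rods. On a TPM scale, computed from the deposited transcript counts and annotated transcript lengths, Bbs5 was highest in the controls at 610.2 ± 237 (SD, n = 3), followed by Ift43 at 437 ± 103 and Bbs4 at 314 ± 114. The SD ranges of neighbours in this order overlapped. Cep19 (176 ± 40.5), Ift27 (158 ± 43.8), Ift46 (153 ± 29.5), Ift22 (139 ± 8.13), Ift20 (129 ± 6.35) and Bbs12 (125 ± 50.6) came next and did not differ from their neighbours beyond their spread. Cep57 was the highest of the centriole assembly genes at 89.1 ± 27.2. Ttc21a, Cep55, an abscission protein gene, and Cep295nl had 0 counts in every control.

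The BBSome genes had the highest sum of the role groups in every control, though not in labelled replicates 1 and 2, and their sum was lower in the labelled libraries. The 6 genes summed to 1459 to 1893 CPM in the controls and to 598 to 990 CPM in the labelled libraries, a ratio of group means of 2.25, and 1.59 with library totals. The groups did not overlap under any of the 4 scalings tried. Of the 6, 0 passed the test, 5 had negative and 1 a positive log2 fold change. Bbs4 and Bbs5 had the largest differences in mean, at 641 against 141 CPM and 658 against 382 CPM, controls first. Bbs2 differed little, at 113 against 109 CPM, and Bbs1 had a higher mean, at 9.07 against 16.1 CPM. A background over all genes was not computed for sums of role groups. Ttc8 and Bbip1, BBSome genes outside the name rule, went in opposite directions and are given below.

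Bbs4 (chr9:59321990-59353508), a BBSome subunit, stood at 476.5, 837 and 610.2 CPM in the controls and 6.74, 136 and 279 CPM in the libraries labelled Jun shRNA (log2 fold change -2.19, SE 0.98, adjusted p = 0.302). Every labelled library was below every control, and the labelled libraries themselves spanned a wide range. Bbs5 (chr2:69647171-69667571), a BBSome subunit that binds phosphoinositides, stood at 964, 484 and 526 CPM in the controls and 304, 405 and 437 CPM in the libraries labelled Jun shRNA (log2 fold change -0.78, SE 0.40, adjusted p = 0.355). Its groups were separate but close, and the highest labelled library was near the lowest control. Bbs7 stood at 325, 75.4 and 145 CPM in the controls and 46.7, 64.9 and 76.5 CPM in the libraries labelled Jun shRNA (log2 fold change -1.54, SE 0.72, adjusted p = 0.319), with the highest labelled library just above the lowest control. For Bbs2 the values were 40.8, 183 and 113 CPM against 163, 76.0 and 87.4 CPM, on both sides of each other, with a log2 fold change of -0.05 (SE 0.74), and -1.005 from summed transcript counts.

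Bbs12 and Bbs10 belong to a chaperonin-like complex that helps assemble the BBSome. Bbs12 (chr3:37312554-37321453) stood at 159, 209 and 369 CPM in the controls and 124, 15.3 and 18.1 CPM in the libraries labelled Jun shRNA (log2 fold change -2.23, SE 0.91, adjusted p = 0.262), the smallest p of the set. All 3 labelled libraries were lower, and 2 of them far lower than the third. Bbs10 had counts well above 0 in some libraries of each group and near 0 in others, at 36.6, 108 and 0.108 CPM against 0.408, 69.3 and 0.523 CPM. Mkks, the third member of that complex, named after its values were seen, stood at 137, 129 and 105 CPM in the controls and 21.6, 57.1 and 32.9 CPM in the libraries labelled Jun shRNA (log2 fold change -1.74, SE 0.75, adjusted p = 0.285). The chaperonin-like pair Bbs10 and Bbs12 summed to 196 to 369 CPM in the controls and to 18.6 to 124 CPM in the labelled libraries, without overlap under all 4 scalings.

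Among the IFT-B genes some members had higher and some lower means, and the direction of their sum depended on the scaling. The 11 genes summed to 1069 to 1217 CPM in the controls and 939 to 1078 CPM in the labelled libraries. None passed (0 of 11). Positive log2 fold changes were found for 5 and negative ones for 6, with a median of -0.33, and the mean sum was higher, not lower, in the labelled libraries under upper-quartile and library-total scaling. With library totals the groups did not overlap, at 919.6 to 1002 CPM in the controls and 1038 to 1421 CPM in the labelled libraries.

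Ift20 (chr11:78536361-78541737), the IFT-B subunit also found at the Golgi, stood at 104, 93.5 and 108 CPM in the controls and 289, 137 and 193 CPM in the libraries labelled Jun shRNA (log2 fold change 1.02, SE 0.54, adjusted p = 0.377). The controls were close together and all labelled libraries were higher. Ift20-204, annotated as a retained intron, held 45.5%, 49.1% and 32.9% of the Ift20 transcript counts in the labelled libraries. The main coding transcript, Ift20-203, overlapped, at 66.6, 74.4 and 108 CPM against 139, 72.9 and 80.4 CPM (log2 fold change 0.23, SE 0.70, edgeR adjusted p = 0.913). The coding transcript Ift20-202, at a lower level, was higher without overlap. Ift81 (chr5:122550204-122614518), which with Ift74 forms the tubulin-binding part of IFT-B, stood at 85.4, 91.9 and 173 CPM in the controls and 237, 232 and 175 CPM in the libraries labelled Jun shRNA (log2 fold change 0.88, SE 0.54, adjusted p = 0.44). Its groups were separate by a narrow margin, since control replicate 3 nearly reached the lowest labelled library. Its main coding transcript, Ift81-201, went the other way, at 151, 113 and 205 CPM in the controls and 108, 107 and 71.2 CPM in the libraries labelled Jun shRNA (log2 fold change -0.72, SE 0.60, adjusted p = 0.652). Ift74 stood at 150.1, 123 and 34.3 CPM against 149, 166 and 135 CPM, with 1 low control (log2 fold change 0.55, SE 0.69).

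In contrast, Ift27, a small GTPase of IFT-B that helps the BBSome leave the cilium, stood at 113, 90.9 and 162 CPM in the controls and 48.9, 41.7 and 36.6 CPM in the libraries labelled Jun shRNA (log2 fold change -1.52, SE 0.70, adjusted p = 0.315). The groups were separate and the labelled libraries lay close together. Ift46 (chr9:44767908-44793447), an IFT-B subunit that helps carry dynein arms in motile cilia, stood at 169.7, 226 and 212 CPM in the controls and 0.476, 31 and 60.6 CPM in the libraries labelled Jun shRNA (log2 fold change -2.72, SE 1.25, adjusted p = 0.311). The labelled libraries were all lower, and replicate 1 was close to 0. Ift22, a Rab-like subunit, stood at 207.5, 158 and 138 CPM against 0.272, 212 and 32.4 CPM: the labelled libraries ranged from near 0 to the highest value of all 6.

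The 5 IFT-A genes summed to 266 to 458 CPM in the controls and 119 to 342 CPM in the labelled libraries, and the ranges overlapped. Of 4 tested, 0 passed, 3 were negative and 1 was positive. Ift43 made up most of the sum, at 398, 252 and 226 CPM in the controls and 279.8, 117 and 75.7 CPM in the libraries labelled Jun shRNA (log2 fold change -0.89, SE 0.60, adjusted p = 0.482), with 1 labelled library inside the control range. Ift122, a core IFT-A subunit, stood at 30.9, 57.5 and 15.8 CPM against 15.0, 12.7 and 5.17 CPM, and Ift140 at 23.5, 48.0 and 0.864 CPM against 12.5, 5.87 and 1.24 CPM. Ttc21b, whose protein is IFT139, stood at 5.18, 66.2 and 22.9 CPM against 35.0, 54.7 and 33.8 CPM and overlapped fully. Its paralogue Ttc21a had 0 control counts and 0, 2 and 45 counts in the labelled libraries. Together that is at least 50.7-fold higher when 3 counts for the whole control group are taken as the floor, but it rests on labelled replicate 3, without which 2 counts are left, too few for a fold.

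Kinesin-2 and tectonic genes varied widely within each group. Kif3a, the motor subunit shared by both heterotrimeric forms, stood at 78.6, 80.6 and 0.360 CPM in the controls and 101, 15.7 and 2.88 CPM in the libraries labelled Jun shRNA. Its partner Kif3b stood at 43.9, 39.1 and 0.0720 CPM in the controls and 84.1, 7.84 and 8.24 CPM in the libraries labelled Jun shRNA. Both were near 0 in control replicate 3, and both were highest in labelled replicate 1. The tectonics, transition zone proteins that gate the cilium, were low: Tctn1 stood at 0.137, 4.86 and 13.8 CPM against 0.136, 1.02 and 1.64 CPM, and Tctn3 at 0.521, 37.3 and 0.0360 CPM against 0.476, 21.0 and 11.9 CPM.

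The 35 Cep genes had 0 that passed of 29 tested, 17 positive and 12 negative log2 fold changes, and a median of 0.63. Among those of centriole duplication and assembly the sum was 332 to 565 CPM in the controls and 584 to 840 CPM in the labelled libraries, without overlap under all 4 scalings (ratio of means 1.65 with TMM). Of the 11 tested, 8 were positive and 3 negative. The largest differences in mean were those of Cep57 (149 against 244 CPM, controls first), Cep44 (20 against 102 CPM) and Cep192, all higher in the labelled libraries. As given below, the listed coding transcripts of Cep57 and Cep44 overlapped, and nearly all Cep192 transcript counts were on retained introns. As for the BBSome sum, no background over all genes was computed. The summed level of dividing-cell markers, given above, was lower in the same libraries, but 0 of the 5 tested passed and Ccna2 had a higher mean there. Their part in the sum was not tested.

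Cep192, which recruits PLK4 and builds the pericentriolar material, stood at 1.65, 14.7 and 0.180 CPM in the controls and 46.4, 88.7 and 26.9 CPM in the libraries labelled Jun shRNA (log2 fold change 3.29, SE 1.63, adjusted p = 0.342). The controls were all lower, with 2 of them under 2 CPM. Between 92.2% and 100% of its transcript counts were on transcripts annotated as retained introns in every library. Cep44, needed for centriole integrity, stood at 0.549, 23.4 and 36.1 CPM in the controls and 102, 40.8 and 165 CPM in the libraries labelled Jun shRNA (log2 fold change 2.35, SE 1.32, adjusted p = 0.398), with labelled replicate 2 close to the highest control. Its coding transcript Cep44-201 overlapped, at 0.0926, 21.0 and 37.5 CPM against 8.87, 33.8 and 47.5 CPM (log2 fold change 0.62, SE 1.78, edgeR adjusted p = 0.907). Cep57, a pericentriolar protein gene, stood at 98.5, 173 and 175 CPM in the controls and 288, 183 and 262 CPM in the libraries labelled Jun shRNA (log2 fold change 0.72, SE 0.50, adjusted p = 0.503). Its coding transcripts overlapped: Cep57-201 at 39.8, 110 and 149 CPM against 0, 49.9 and 93.6 CPM (log2 fold change -1.06, SE 1.84). For Cep57-208 the values were 3.24, 90.3 and 26.9 CPM against 300, 78.6 and 0 CPM (log2 fold change 1.65, SE 2.13). Cep63, a partner of Cep152, stood at 47.8, 58.2 and 16.9 CPM against 19.2, 103 and 86.5 CPM, and Cep97, which caps centrioles with CP110, at 30.9, 118 and 0.216 CPM against 159.7, 95.5 and 2.36 CPM, both with overlapping groups.

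Cep164 (chr9:45766946-45828691) is the distal appendage protein that docks the basal body to the membrane. It stood at 29.8, 30.1 and 29.8 CPM in the controls and 66.6, 80.7 and 69.3 CPM in the libraries labelled Jun shRNA (log2 fold change 1.27, SE 0.84, adjusted p = 0.475). The controls were nearly identical and all 3 labelled libraries were higher by about the same amount. Cep19, which recruits RABL2 to the basal body at the start of IFT, stood at 254, 162 and 299 CPM in the controls and 94.9, 36.9 and 0.589 CPM in the libraries labelled Jun shRNA (log2 fold change -2.43, SE 1.26, adjusted p = 0.361). Here all 3 labelled libraries were lower, down to near 0 in replicate 3. Cep170, of the subdistal appendages, stood at 38.9, 18.6 and 50.2 CPM against 102, 25.2 and 1.70 CPM, and Cep350 at 169.8, 6.78 and 24.0 CPM against 107, 14.7 and 315 CPM, and neither separated the groups.

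Of the genes of the cilium and satellites, Cep78 had the largest positive log2 fold change at 5.03 (SE 2.41, adjusted p = 0.328). Its values were 0.0274, 0.677 and 0 CPM against 13.1, 10.8 and 0.0654 CPM, so it rests on labelled replicates 1 and 2. Cep162, of the axoneme base, stood at 139.7, 44.5 and 103 CPM against 139, 114 and 18.2 CPM, Cep41, a tubulin glutamylation factor, at 74.7, 31 and 10.9 CPM against 38.7, 39.7 and 27.4 CPM, and Cep126 at 0.823, 6.34 and 7.16 CPM against 80.0, 0.677 and 0.393 CPM. None of these 3 separated the groups. Of the rest, Cep70 stood at 61.4, 3.56 and 2.95 CPM against 8.30, 1.07 and 14.4 CPM, Cep85l at 1.76, 10.7 and 0.756 CPM against 40.6, 47.5 and 0.0654 CPM and Cep95 at 11.2, 54.0 and 17.2 CPM against 2.18, 11.4 and 24.2 CPM. Cep55 had 0 control counts and 2 in the labelled libraries, and Cep295nl 0 and 1, too few for a fold.

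**Figure D3:**
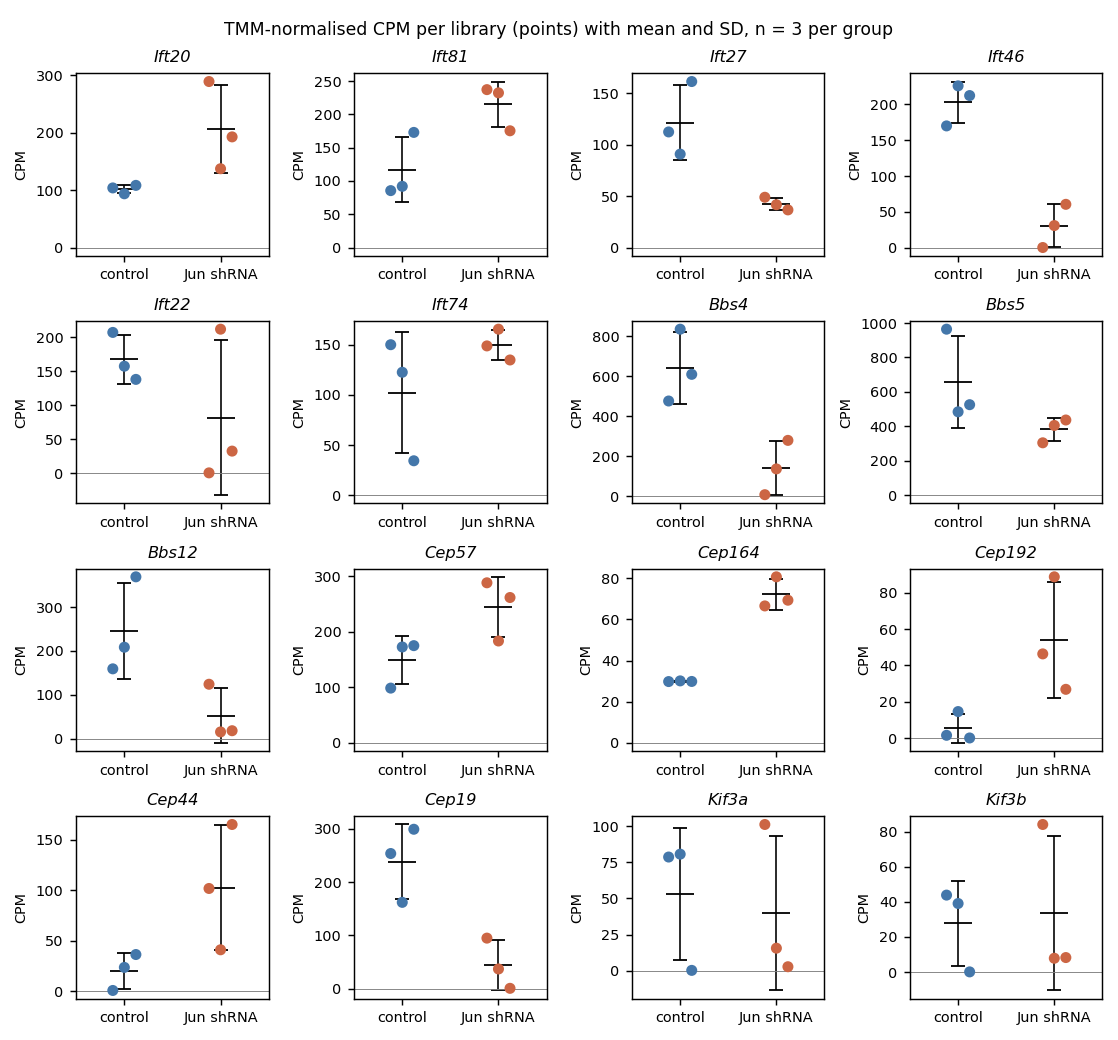
CPM in each library for 16 of the genes, with the mean and SD of each group (n = 3). Points are libraries. Ift20, Ift81, Cep57, Cep164, Cep192 and Cep44 have all labelled libraries above all controls, Ift27, Ift46, Bbs4, Bbs5, Bbs12 and Cep19 have them below, and Ift22, Ift74, Kif3a and Kif3b overlap. None of the 16 passed the test.

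Genes near 0 in 1 library and expressed in another of the same group were frequent. Under 1 CPM in 1 library and at least 10 CPM in another was found for 15 of the 56 genes in the controls (26.8%, against 17.6% of all tested genes) and for 14 in the labelled libraries (25.0%, against 17.9%). In either group it was 23 of 56 (41.1%, against 30.1%). Those in the controls included Kif3a, Kif3b, Bbs10 and Tctn3, and those in the labelled libraries included Ift22, Ift46, Ift52, Bbs10, Tctn3, Cep19, Cep85l and Cep78. The deepest library, control replicate 2, had 10 of the 64 genes under 1 CPM, and the others 12 to 19. Of the 64 genes 8 were not tested: Cep112, Kif3c, Cep295nl, Cep152, Cep131, Cep55, Cep72 and Ttc21a.

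The share of retained-intron transcripts did not overlap between the groups. Transcripts annotated as retained introns in GENCODE vM21, which keep intron sequence and do not encode the full protein, held 2.62%, 2.66% and 2.69% of the members' transcript counts in the controls (2.66% ± 0.035, n = 3). In the labelled libraries they held 14.2%, 13.0% and 9.66% (12.3% ± 2.34, n = 3). The difference of 9.61 percentage points gave an exact two-sided permutation p = 0.1, the smallest that 3 against 3 libraries can give. As the median over members with equal weight the difference was 4.32 percentage points. The same move was seen beyond this set: in other protein-coding genes the share was 3.23% ± 0.41 in the controls and 8.47% ± 0.99 in the labelled libraries (n = 3, exact permutation p = 0.1). Depth differed between the groups in parallel, as given above, and its part was not tested.

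By role the retained-intron share was 4.07% ± 1.21 against 20.0% ± 5.37 for the IFT genes, 1.05% ± 1.22 against 4.30% ± 2.20 for the BBS genes and 4.05% ± 1.00 against 11.2% ± 0.91 for the Cep genes (n = 3). Most of the IFT retained-intron counts in the labelled libraries were on Ift20, Ift80 and Ift81. Within Ift20 the share overlapped, at 44.8%, 42.8% and 17.6% in the controls and 45.5%, 49.1% and 32.9% in the labelled libraries. Transcripts marked for nonsense-mediated decay held 1.03% ± 1.11 of the BBS counts in the controls and 8.84% ± 2.76 in the labelled libraries. For the IFT genes that share was 0.63% ± 0.41 against 0.19% ± 0.32, for the Cep genes 2.89% ± 4.57 against 6.03% ± 4.29 and for all members 1.44% ± 1.45 against 4.54% ± 2.25, with overlapping groups in all 3, and for other protein-coding genes 2.47% ± 0.084 against 3.36% ± 0.11 (n = 3). In the labelled libraries these BBS counts were nearly all on Bbs5-205, and in replicate 3 also on Bbs9-203. Bbs5-205 itself overlapped, at 58.8, 19.7 and 2.25 CPM in the controls and 66.7, 46.8 and 55.2 CPM in the libraries labelled Jun shRNA (edgeR adjusted p = 0.758). Differences between the roles were not tested. Of 46 genes with an annotated retained-intron transcript, 30 had at least 10 transcript counts in every library, and the mean share was higher in the labelled libraries for 20 (66.7%, against 62.6% of 3714 protein-coding genes counted in the same way) and lower for 9 (30.0%, against 30.0%). The groups did not overlap for 5 higher genes (16.7%, against 14.9%), Bbs4, Ift80, Ift81, Bbs2 and Cep63, and for 1 lower gene (3.33%, against 3.23%), Cep57. These shares were near those of all genes. For Ift80, an IFT-B gene, named after its values were seen, the share was 6.74%, 8.06% and 1.62% in the controls and 55.2%, 86.9% and 51.4% in the labelled libraries.

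**Figure D4:**
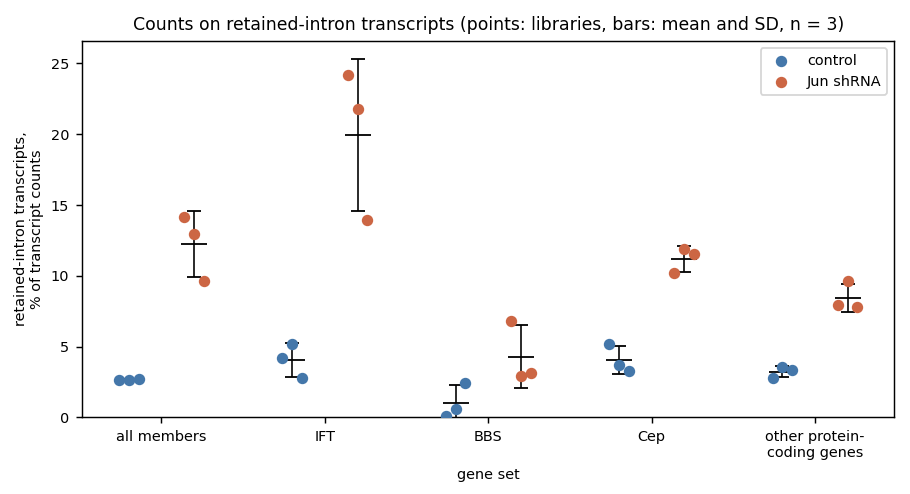
Retained-intron transcripts as a percentage of transcript counts (vertical axis), for all members, the IFT, BBS and Cep genes and all other protein-coding genes. Points are libraries, with mean and SD (n = 3). For every set all 3 labelled libraries lie above all 3 controls, also for the other protein-coding genes.

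Of 431 transcripts of the set 112 were tested, and 0 passed (edgeR, Benjamini-Hochberg over 20706 transcripts), where 0.058% of all tested transcripts passed as higher and 0.604% as lower. At an unadjusted p under 0.05 there were 10, 8.93%, against 15.5% of all, and limma-voom passed 6, 5.36%, against 7.93% of all. Retained-intron transcripts had positive log2 fold changes in 21 of 24 (median 1.44), against 69.7% of all 3200 tested (median 1.21). Protein-coding transcripts were negative in 49 of 75 (median -1.06), where 36.6% of all were positive (median -0.79).

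The 5 transcripts with the smallest p belonged to Bbs9, Ift81, Ift122 and Ift46. Bbs9-209, a coding transcript of a BBSome gene, had 2582, 10567 and 1388 control counts and 0 in every labelled library, at least 1871-fold lower with the floor of 3 counts for a whole group (edgeR adjusted p = 0.0567, limma-voom adjusted p = 0.00756). The Bbs9 gene as a whole did not show this: it stood at 82.1, 219 and 62.9 CPM in the controls and 51.0, 22.9 and 97.4 CPM in the libraries labelled Jun shRNA. Other Bbs9 transcripts held the counts there, mainly Bbs9-205 and Bbs9-210 in replicate 1, Bbs9-210 in replicate 2 and Bbs9-203 in replicate 3. Bbs9-210 is coding. Bbs9-205, a retained-intron transcript, held 64.6% in replicate 1, and Bbs9-203, marked for nonsense-mediated decay, 88.3% in replicate 3.

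Ift81-207, a retained-intron transcript of 872 bases, had 0 control counts and 397, 847 and 736 in the labelled libraries, at least 1709-fold higher (edgeR adjusted p = 0.0825, limma-voom adjusted p = 0.00756). It held 11.8%, 28.6% and 38.5% of the Ift81 transcript counts there. In these libraries the coding transcript Ift81-201 held 49.7%, 66.6% and 61.3%, against 92.7% to 100% in the controls. The last exon of Ift81-207 runs past the coding transcripts' exon into the intron, and is shown to mark the part that separates them. It lies at chr5:122602182-122602378 on the minus strand of GRCm38. Capitals mark the 86 bases outside coding exons, which include a run of A.
Ift81-207: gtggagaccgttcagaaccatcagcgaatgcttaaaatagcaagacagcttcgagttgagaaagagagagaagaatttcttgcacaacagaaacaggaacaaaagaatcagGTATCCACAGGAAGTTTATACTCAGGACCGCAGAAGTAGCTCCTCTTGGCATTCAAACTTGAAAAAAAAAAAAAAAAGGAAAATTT

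Ift122-204, annotated as a processed transcript, had 0 control counts and 145, 88 and 34 in the labelled libraries, at least 230-fold higher (edgeR adjusted p = 0.0963). Ift46-213, marked for nonsense-mediated decay, had 211, 335 and 141 control counts and 0 in the labelled libraries, at least 88.4-fold lower (edgeR adjusted p = 0.0974). The coding transcript Ift46-201 had 1028, 3480 and 1057 control counts and 24, 10 and 17 in the labelled libraries (edgeR adjusted p = 0.109). Ift46 was lower in the gene table as well. The counts of transcripts come from an estimate that splits shared reads, and the gene count of a member was within 1.5-fold of its transcript sum in 223 of 282 values with sums over 50. The ratio of gene count to transcript sum ran from 0.404 to 7.43, so gene and transcript levels of a gene can differ widely.

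**Figure D5:**
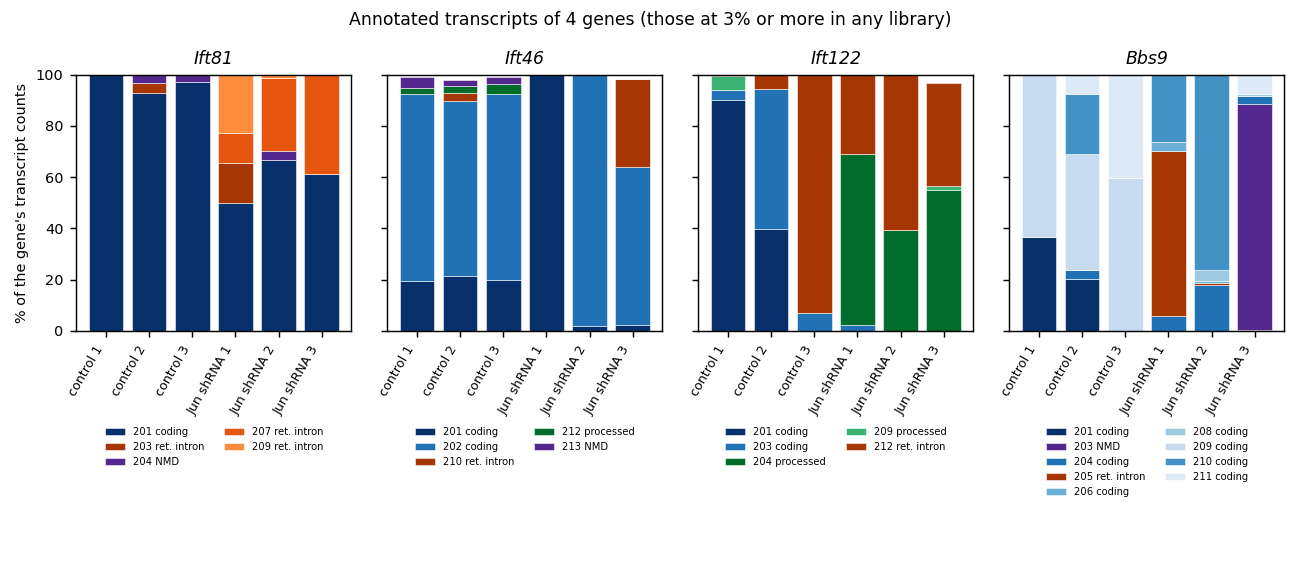
Share of each gene's transcript counts (vertical axis, percent) on its annotated transcripts, for Ift81, Ift46, Ift122 and Bbs9 in each library. Transcripts at 3% or more in any library are drawn, blue for coding, orange for retained intron, green for processed and violet for nonsense-mediated decay. In the labelled libraries Ift81-207 holds 11.8% to 38.5% of Ift81 and Bbs9-209 has 0 counts.

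Genes of the same pathway outside the name rule were read from lists. Of a list of IFT, BBS and dynein 2 genes with other names and some associated genes, 0 of 23 tested passed. Log2 fold changes were positive for 10 and negative for 13, with a median of -0.05. With TMM scaling, 9 of the 23 were lower in all labelled libraries than in all controls, and 1 was higher. Of all tested genes, 15.7% were lower and 12.6% higher in this way. Ttc8, which encodes the BBSome subunit BBS8, stood at 349, 608 and 630.2 CPM in the controls and 75.9, 153 and 99.9 CPM in the libraries labelled Jun shRNA (log2 fold change -2.27, SE 0.48, adjusted p = 0.0533), close to the threshold, and every labelled library was far below every control. Bbip1, another BBSome gene, named after its values were seen, had a higher mean in the labelled libraries. It stood at 350.3, 210 and 175 CPM in the controls and 644, 328 and 477 CPM in the libraries labelled Jun shRNA (log2 fold change 0.98, SE 0.45, adjusted p = 0.316), with overlap. Ttc30a2, an IFT-B gene, had an adjusted p of 0.137 at 0.905, 9.49 and 6.91 CPM against 0.204, 0.0564 and 0.0654 CPM. Among 18 transition zone genes 0 passed (median 0.23): Tmem237, a transition zone membrane protein gene, stood at 1281, 999.8 and 1017 CPM in the controls and 309, 452 and 549.8 CPM in the libraries labelled Jun shRNA (log2 fold change -1.33, SE 0.34, adjusted p = 0.0833).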

How the data were processed

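RNA of sorted rods was turned into full-length cDNA with a SMART-seq low-input kit and sequenced as Nextera XT libraries. Per the labels' protocols no step marks strand. The authors deposited estimated counts per gene and per transcript, and a normalised gene signal whose column sums ran from 1250540 to 2385210. The submitters' processing notes list kallisto 0.44.0, edgeR 3.28.1 and Trimmomatic 0.39, without role. The authors' build is not given in the sources here, and the deposited coordinates fit GRCm38. No sample column was left out (0).

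Counts were rounded and tested with edgeR 4.0.16 (R 4.3.3; filterByExpr, TMM, quasi-likelihood test on group, Benjamini-Hochberg adjustment, threshold 0.05). CPM values are TMM-normalised. Transcript types come from GENCODE vM21. Alternatives used limma 3.58.1, DESeq2 1.42.0, other scalings and filters, a replicate block and each library left out. Functions were tested on simulated counts. Members and gene lists were chosen with earlier results of these data known. Named were, per role list, the 4 genes with the highest mean CPM and the 2 with the smallest p, genes at 0 in a whole group, and the 5 transcripts with the smallest p. Other names were chosen after their values were seen, and some results are not reported here. Of rows matching the name pattern, 1 patch copy and 5 rows not annotated as protein-coding were left out. Floors of 3 counts allow for counting error alone, as PCR copies were not marked by molecular identifiers.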

Additional observations from a re-analysis of the deposited data

How the results depend on the processing

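Across 18 alternatives, 0 members passed in all but the unfiltered fit (2 lower) and DESeq2 (1 higher, 1 lower), both given in the report. Genes of the whole table passing as higher, 41 in the reported fit, numbered 68 with library totals, 164 without a filter, 95 with 10 counts in every library, 855 with DESeq2, 127 with limma-voom, and 103 and 78 with limma-trend when 0.5 or 2 was added to the deposited signal. Genes passing as lower, 173 in the reported fit, numbered 89 with upper-quartile scaling, 79 with library totals, 573 without a filter, 1144 with DESeq2, 315 with limma-voom, 512 and 475 with limma-trend, and 98 after thinning to the smallest total. With 1 library left out they numbered 5 to 17 higher and 31 to 95 lower. The median of the members was 0.31 with upper-quartile scaling, 0.44 with library totals and 0.41 after thinning, where that of all tested genes was 0.27, 0.38 and 0.19. With 1 library left out it was -0.49 to 0.10 (-0.45 without control replicate 3 and -0.49 without labelled replicate 1, against -0.028 and -0.22 for all tested genes). Member transcripts passed in limma-voom only, 2 higher and 4 lower. The retained-intron difference stayed positive, 9.06 for members with 10 counts in every library, 4.32 as an equal-weight median, and 8.66 to 10.9 with 1 library left out, where the smallest possible p is 0.2.

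The labels give both groups replicate numbers 1 to 3. Deviations of same-numbered libraries correlated at 0.0034, 0.035 and -0.0097, and those of different-numbered libraries at -0.026 to 0.021. No pairing by number was seen, though 3 libraries per group cannot exclude it. With the replicate block 19 genes passed as higher and 78 as lower, and 0 members.

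Some uncalled members changed sign. With median-of-ratios, upper-quartile and library-total scaling the log2 fold change was 0.11, 0.32 and 0.40 for Bbs2, 0.058, 0.29 and 0.46 for Cep162, 0.034, 0.29 and 0.41 for Cep41, and 0.011, 0.30 and 0.36 for Tctn3. With library totals it was 0.061 for Kif3a. After thinning it was 0.39 for Bbs2, 0.26 for Cep162, 0.24 for Cep41 and 0.41 for Tctn3. With limma-voom, and limma-trend plus 0.5 and plus 2, it was -0.73, -1.13 and -0.96 for Cep170, 0.16, 0.046 and 0.033 for Cep41, and 2.21, 1.30 and 0.73 for Tctn3. With limma-voom and limma-trend plus 0.5 it was -0.31 and -0.16 for Cep126, and DESeq2 gave 0.021 for Bbs2. From summed transcript counts it was -0.98 for Cep170, 0.47 for Cep41 and -1.21 for Cep97. With the replicate block it was 0.065 for Bbs2, -2.03 for Cep126, -0.53 for Cep170, 0.25 for Cep41, 0.31 for Kif3a and 1.12 for Tctn3. With 1 library left out the ranges were -6.67 to 0.40 for Bbs10, -0.49 to 0.48 for Bbs2, -3.18 to 3.11 for Cep126, -0.55 to 0.40 for Cep162, -1.43 to 0.82 for Cep170, -0.11 to 3.19 for Cep350, -0.55 to 0.71 for Cep41, -2.24 to 1.23 for Cep70, -0.032 to 2.52 for Cep97, -2.53 to 0.13 for Kif3a, -1.80 to 0.78 for Kif3b, -1.03 to 5.32 for Tctn3 and -0.16 to 1.53 for Ttc21b. The cause was not tested.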

Other observations

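Among 24 tested centrosome and centriole genes outside the name rule 0 passed (edgeR), 14 were positive and 10 negative, and the median log2 fold change was 1.00. Cetn3, a centrin of the centriole and connecting cilium, stood at 403, 198 and 255 CPM in the controls and 1420.3, 671 and 1303 CPM in the libraries labelled Jun shRNA (log2 fold change 1.99, SE 0.43, adjusted p = 0.0564), and every labelled library was above every control. Odf2, an appendage protein gene, stood at 3.68, 19.0 and 63.6 CPM in the controls and 152, 246 and 192 CPM in the libraries labelled Jun shRNA (log2 fold change 2.77, SE 0.99, adjusted p = 0.205), also without overlap. Of 5 tested RFX and other ciliary regulators 0 passed (median 1.90). Rfx3 stood at 62.1, 18.2 and 3.60 CPM against 69.5, 227 and 98.7 CPM and Rfx2 at 8.61, 0.566 and 30.8 CPM against 0.272, 3.33 and 0.458 CPM, controls first.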
